A study of Mus musculus with 8 samples.

Results

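The transcripts of 4 neurotrophin receptor genes were followed in dorsal root ganglia (DRG) of E18.5 mouse embryos: Ntrk2, which encodes TrkB, Ntrk3, which encodes TrkC, Ngfr, which encodes the p75 receptor, and Sort1, which encodes sortilin. They were chosen by gene symbol from the 55414 Ensembl genes listed for each library. The 8 RNA-seq libraries fell into 2 groups of 4. AD1 OE embryos (OE for overexpression) had the genotype AdvillinCre/+;Rosa26Dach1/+, in which Cre made from the Advillin gene of somatosensory neurons removes a stop cassette before a Dach1-IRES-EGFP copy at Rosa26. Control embryos were Advillin+/+;Rosa26Dach1/+, so they carried the same Rosa26 allele, which stays silent without Cre, and both groups came from mice of mixed C57Bl/6J and CD1 background. The groups therefore differed in the Advillin allele as well as in Dach1, and the effects of these cannot be told apart.

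Neurotrophins are secreted growth factors that sensory neurons need for survival, axon growth and choice of fate. Each Trk receptor is a tyrosine kinase with a preferred ligand: brain-derived neurotrophic factor (BDNF) and neurotrophin-4 bind TrkB, and neurotrophin-3 (NT-3) binds TrkC. In DRG, TrkB marks low-threshold mechanoreceptors (LTMR), which serve touch, and TrkC marks proprioceptors, which report muscle stretch and body position, together with some mechanoreceptors. The p75 receptor binds all neurotrophins and occurs on sensory neurons and on the glia of the Schwann cell lineage, while sortilin sorts neurotrophins inside cells and joins p75 in the receptor for uncleaved proneurotrophins. The comparison asked whether these lineage-dividing receptors differ at the transcript level when the transcription factor Dach1 is overexpressed in neurons that express Advillin.

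Between 22339059 and 44025625 counts per library fell on genes, with at least 2803 on each receptor gene in every library. Dach1 was 2.94-fold higher in AD1 OE (91.5 to 102 CPM against 30.2 to 33.7 CPM, where CPM is a gene's count scaled to the library size). Markers of DRG neurons and glia were present in all libraries. The summed level of 10 pan-neuronal genes ranged from 8329 to 8982 CPM in AD1 OE and from 8692 to 9017 CPM in Control, and that of 10 satellite and Schwann glia genes ranged from 1598 to 1953 and from 1599 to 1948 CPM. Of neighbouring tissues, 6 of 8 spinal cord genes and 5 of 8 sympathetic neuron genes were under 1 CPM on average, whereas 6 skeletal muscle genes summed to 100.1 to 491 CPM in AD1 OE and 120.5 to 338 CPM in Control, and 6 fibroblast genes to 5777 to 6542 and 4947 to 6065 CPM. Embryo sex, read from Xist and Y-linked transcripts, was unbalanced, with 3 male libraries in AD1 OE and 1 in Control.

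The study's thresholds for this comparison were an adjusted p below 0.005 together with a log2 fold change beyond 0.25 in either direction, and genes that passed them under edgeR are termed called. Of the 4 receptors, 0 were called, against 2.57% of the 17721 genes tested (0.784% higher and 1.78% lower in AD1 OE). At an adjusted p below 0.05 with no limit on fold change there was 1, Ntrk3, against 6.55% of all tested genes (2.42% higher and 4.14% lower). At an unadjusted p below 0.05 there were 3, all with higher levels in AD1 OE, against 18.6% of all tested genes (8.28% higher). Under DESeq2 1 of the 4, Ntrk3, passed the study's thresholds, against 3.70% of all tested genes (1.30% higher). All 4 point estimates were above 0, with a median log2 fold change of 0.16 against 0.002 over all tested genes. The AD1 OE and Control libraries did not overlap for Ntrk3 and Ngfr, 2 of the 4, both higher in AD1 OE, whereas 13.0% of all tested genes were separated (5.69% higher and 7.26% lower). They overlapped for Ntrk2 and Sort1. These are bulk values of whole ganglia, so from them alone more cells of a type and more RNA per cell cannot be told apart. By immunostaining at E18.5, the study found TrkB and TrkC neurons in appropriate numbers in AD1 OE. It also gave the genes of TrkB and TrkC as not deregulated, whereas here Ntrk3 passed its thresholds under DESeq2 but not under edgeR.

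**Figure D1:**
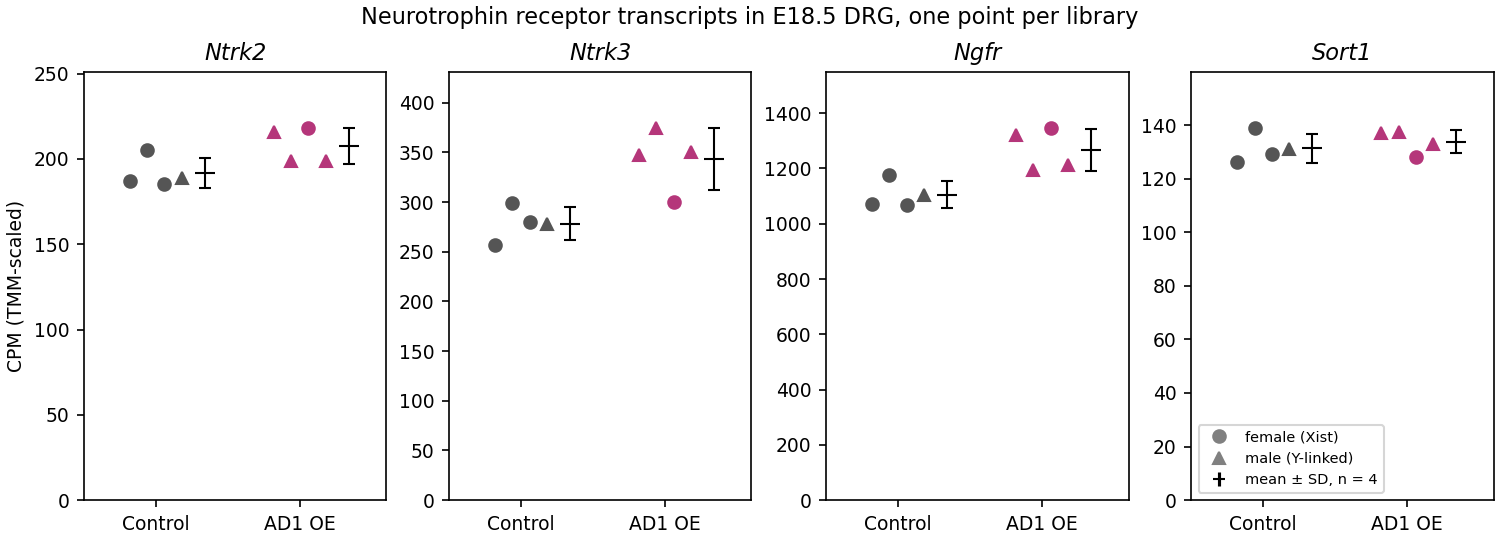
Levels of the 4 receptor transcripts in CPM, with 1 point per library, circles for libraries read as female and triangles for those read as male, and the mean with its SD (n = 4) beside each group. For Ntrk3 and Ngfr all AD1 OE points lie above all Control points, the lowest AD1 OE value of Ntrk3 (300.5 CPM) only just above the highest Control value (299 CPM).

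Ntrk3 (ENSMUSG00000059146, chromosome 7) had the largest difference of the 4 receptors. It was at 348, 375, 300.5 and 350.5 CPM in AD1 OE replicates 1 to 4 and at 257, 299, 280.1 and 278 CPM in Control replicates 1 to 4. The groups did not overlap, but the female AD1 OE library, replicate 3, stood well below the 3 male ones and almost level with Control replicate 2. The group levels were 343 ± 30.97 CPM and 278 ± 16.9 CPM (mean ± SD, n = 4 each), a level 23.3% higher in AD1 OE (log2 fold change 0.30, standard error 0.07, 95% confidence interval 0.16 to 0.45). The edgeR adjusted p of 0.0171 lay above the study's limit of 0.005 and below 0.05.

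The difference in Ntrk3 was smaller when embryo sex was taken into account, and each sex had 1 library in 1 of the groups. Among female libraries, the 1 AD1 OE library at 300.5 CPM stood against 3 Control libraries at 257 to 299 CPM, a ratio of means of 1.08. Among male libraries, 3 AD1 OE libraries at 348 to 375 CPM stood against 1 Control library at 278 CPM, a ratio of 1.29. With sex as a 2-level term the log2 fold change was 0.24 (edgeR adjusted p = 0.0815). The single male Control library lay among the female ones. The difference between the effects in males and females had a log2 size of 0.26 (edgeR interaction test, unadjusted p = 0.0556, adjusted p = 0.992). When AD1 OE replicate 3 was left out, Ntrk3 was called, at a log2 fold change of 0.37 and an edgeR adjusted p of 0.00107, so 1 library decides this call. Leaving out AD1 OE replicate 1 instead gave the highest adjusted p of the 8 such fits, 0.0516.

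Ngfr (ENSMUSG00000000120, chromosome 11) was by far the most abundant of the 4 transcripts and ranked 48 among all tested genes by mean CPM. AD1 OE replicates 1 to 4 held 1319, 1196, 1346 and 1211 CPM, and Control replicates 1 to 4 held 1072, 1176, 1069 and 1105 CPM. All AD1 OE libraries lay above all Control libraries, with a narrow gap between AD1 OE replicate 2 and Control replicate 2. The means of 1268 ± 75.7 and 1105 ± 49.7 CPM (SD, n = 4 each) differed by 14.7% (log2 fold change 0.20, standard error 0.05, 95% confidence interval 0.08 to 0.32, edgeR adjusted p = 0.0542). The size of this difference fell short of the fold change limit in every fit, including DESeq2, where the adjusted p was 0.00165. Unlike Ntrk3, Ngfr was highest in the female AD1 OE library, and the ratio of means was 1.22 among females and 1.12 among males, with 1 library on 1 side of each.

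Because p75 is made by neurons and glia alike, Ngfr was also read against both. The ratio of Ngfr to the summed pan-neuronal markers was 0.143 to 0.155 in AD1 OE and 0.121 to 0.130 in Control, without overlap. The ratio to the summed glial markers was 0.612 to 0.843 in AD1 OE and 0.550 to 0.735 in Control, and these ranges overlapped. Under edgeR 0 of the 10 glial marker genes were called, against 2.57% of all tested genes. Fabp7, named after its values were seen, had the lowest adjusted p among them, 0.101, with a lower level in AD1 OE (log2 fold change -0.26). The part of glia or of the fibroblasts noted above in the level of Ngfr was not tested.

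Ntrk2 (ENSMUSG00000055254, chromosome 13) was at 216, 199, 218 and 199 CPM in AD1 OE replicates 1 to 4 and at 187, 205, 186 and 189 CPM in Control replicates 1 to 4. The groups overlapped through Control replicate 2, which lay above AD1 OE replicates 2 and 4. The means were 208 ± 10.6 and 192 ± 8.95 CPM (SD, n = 4 each), a log2 fold change of 0.12 with a 95% confidence interval of 0.02 to 0.22 (edgeR adjusted p = 0.189). As a fold this interval ran from 1.01 to 1.16.

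Sort1 (ENSMUSG00000068747, chromosome 3) showed the smallest difference. AD1 OE replicates 1 to 4 held 137, 137, 128 and 133 CPM and Control replicates 1 to 4 held 126, 139, 129 and 131 CPM. The libraries of the 2 groups were interleaved. The ratio of means was 0.974 among females and 1.04 among males, with 1 library on 1 side of each. The means were 134 ± 4.46 and 131 ± 5.43 CPM (SD, n = 4 each), with a log2 fold change of 0.03 and a 95% confidence interval of -0.06 to 0.11 (edgeR adjusted p = 0.772). Sort1 shares 4.47% of its exon bases with Gm12523 on the opposite strand, so a small part of its count is uncertain.

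The counts are per gene and pool transcripts that encode receptors of different function. In the annotation, Ntrk2 has 7 protein-coding transcripts of 466 to 821 codons and Ntrk3 has 4 of 612 to 864 codons. The short forms of both receptors lack the tyrosine kinase and bind ligand without the kinase signal, and short TrkB is known from glia. The levels of Ntrk2 and Ntrk3 given here are therefore not levels of kinase-bearing receptor. Ngfr has 1 coding transcript of 427 codons and Sort1 has 2, of 825 and 858 codons.

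Levels of different genes were compared per kilobase of exon. In Control, Ngfr was at 321 ± 14.4, Sort1 at 17.4 ± 0.717, Ntrk2 at 9.94 ± 0.464 and Ntrk3 at 9.23 ± 0.562 CPM per kilobase of all annotated exons (SD, n = 4). Ntrk2 and Ntrk3 overlapped on this scale, at 9.62 to 10.6 and 8.53 to 9.90 in Control and at 10.3 to 11.3 and 9.96 to 12.4 in AD1 OE. The order below Ngfr depended on the length used. Over the transcript with the longest coding sequence, Ntrk3, at 2.77 kilobases against 30.2 for all its exons, came to 100.4 CPM per kilobase in Control, above Ntrk2 (21.9) and Sort1 (19.2), while Ngfr kept its 321. The counts still pool reads over all exons, so the 100.4 is not a level of that transcript. The place of Ntrk3 among the 3 lower receptors is therefore uncertain. On both scales Ngfr was the highest of the 4.

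The ratio of Ntrk3 to Ntrk2 within a library does not depend on library scaling. It was 1.61, 1.89, 1.38 and 1.76 in AD1 OE replicates 1 to 4 and 1.37, 1.46, 1.51 and 1.47 in Control replicates 1 to 4. AD1 OE replicate 3 lay among the Control values and the other 3 above them, so the groups overlapped. The ratio of Ngfr to Sort1 was 8.70 to 10.5 in AD1 OE and 8.27 to 8.50 in Control, without overlap. These ratios were read as descriptions, with no test.

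Over the 8 libraries, the level of Ntrk2 most resembled that of another receptor of the set. Among 10723 genes with a symbol and a mean of at least 10 CPM, Ngfr had the highest Pearson correlation of log2 CPM with Ntrk2 (0.969), followed by Nsg2 (0.951) and Zrsr1 (0.950). The genes nearest to Ngfr were Extl3 (0.990), Hivep1 (0.980) and Rab11fip4 (0.972). Those nearest to Ntrk3 were Ddi2 (0.991), the potassium channel gene Kcna2 (0.977) and B3galnt2 (0.977), of which Kcna2 was called higher in AD1 OE (log2 fold change 0.32, edgeR adjusted p = 0.00221). Those nearest to Sort1 were Trf (0.958), which encodes transferrin, Ammecr1l (0.947) and Trappc8 (0.946). Among the receptors themselves, the correlation of Ntrk3 with Ntrk2 was 0.501 and that of Ngfr with Sort1 was 0.341. All these values are descriptions over 8 libraries that share their scaling and their division into 2 groups.

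Of the pathway around the receptors, 78 of 79 listed genes were tested and 5 were called, 3 higher and 2 lower in AD1 OE (6.41%, against 2.57% of all tested genes). Their median log2 fold change was -0.01. The called genes were Ntf3, Sorl1 and Mef2c, which rose, and Etv1 and Etv4, which fell. With embryo sex as a 2-level term, only Etv1 of these 5 was called.

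Among the ligands, Ntf3 (ENSMUSG00000049107), which encodes NT-3, the ligand of TrkC, was higher in AD1 OE. It was at 16.7, 18.4, 18.3 and 17.1 CPM in AD1 OE replicates 1 to 4 and at 10.8, 9.97, 9.55 and 13.9 CPM in Control replicates 1 to 4. The groups did not overlap, and the male Control library, replicate 4, was the highest of its group. The level was 1.59-fold higher (log2 fold change 0.67 with a standard error of 0.11 and an edgeR adjusted p of 0.00225). Of the 8 fits that each left out 1 library, the call held in 1, without Control replicate 4. The adjusted p in the others was at most 0.0108, and with sex as a 2-level term it was 0.00654. Bdnf, the gene of the TrkB ligand, averaged 23.3 ± 1.59 CPM in AD1 OE against 26.1 ± 1.21 CPM in Control without overlap, and its log2 fold change of -0.16 was not called (edgeR adjusted p = 0.182). With sex as a 2-level term this value was -0.24 (adjusted p = 0.0260), and without AD1 OE replicate 3 it was -0.11 (adjusted p = 0.316), neither of them a call. It shares 14.4% of its exon bases with Gm45346 on the opposite strand. Ntf5, which encodes neurotrophin-4, was too low to be tested, with at most 11 counts in a library. The proprotein convertase genes Furin (log2 fold change 0.05, edgeR adjusted p = 0.730) and Pcsk5 (0.08, adjusted p = 0.531), whose products cleave proneurotrophins and other precursors, were named after their values were seen and were not called.

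Sorl1 (ENSMUSG00000049313), a relative of sortilin that also carries cargo between the Golgi and endosomes, was called. It was the 1 gene called among 15 co-receptors and receptor relatives (6.67%, against 2.57% of all tested genes). It was at 141, 132, 132 and 148 CPM in AD1 OE replicates 1 to 4 and at 103, 121, 107 and 111 CPM in Control replicates 1 to 4, without overlap. The log2 fold change of Sorl1 came to 0.32 (standard error 0.05), at an edgeR adjusted p of 0.00323. Over the 8 fits without 1 library the call held in 2, without AD1 OE replicate 3 and without Control replicate 2. The highest adjusted p among the other 6 was 0.0135, and the call was lost with sex as a 2-level term (adjusted p = 0.0183) and under the replicate block (adjusted p = 0.00908). The other sortilin relatives, named after their values were seen, had log2 fold changes of 0.11 (Sorcs1), -0.02 (Sorcs2) and -0.03 (Sorcs3) and were not called. Lingo1, also named after its values were seen, encodes a partner of p75 in the receptor for myelin inhibitors. It was at 144 ± 7.87 and 123 ± 8.15 CPM without overlap, with a log2 fold change of 0.23 that lay under the limit (edgeR adjusted p = 0.0217). The most abundant members of the list were close to 0, with log2 fold changes of 0.01 for Ptprf and 0.02 for Ptprs, both receptor phosphatases, and 0.04 for Kidins220, a membrane scaffold that binds Trk receptors and p75 (edgeR adjusted p from 0.718 to 0.933).

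**Figure D2:**
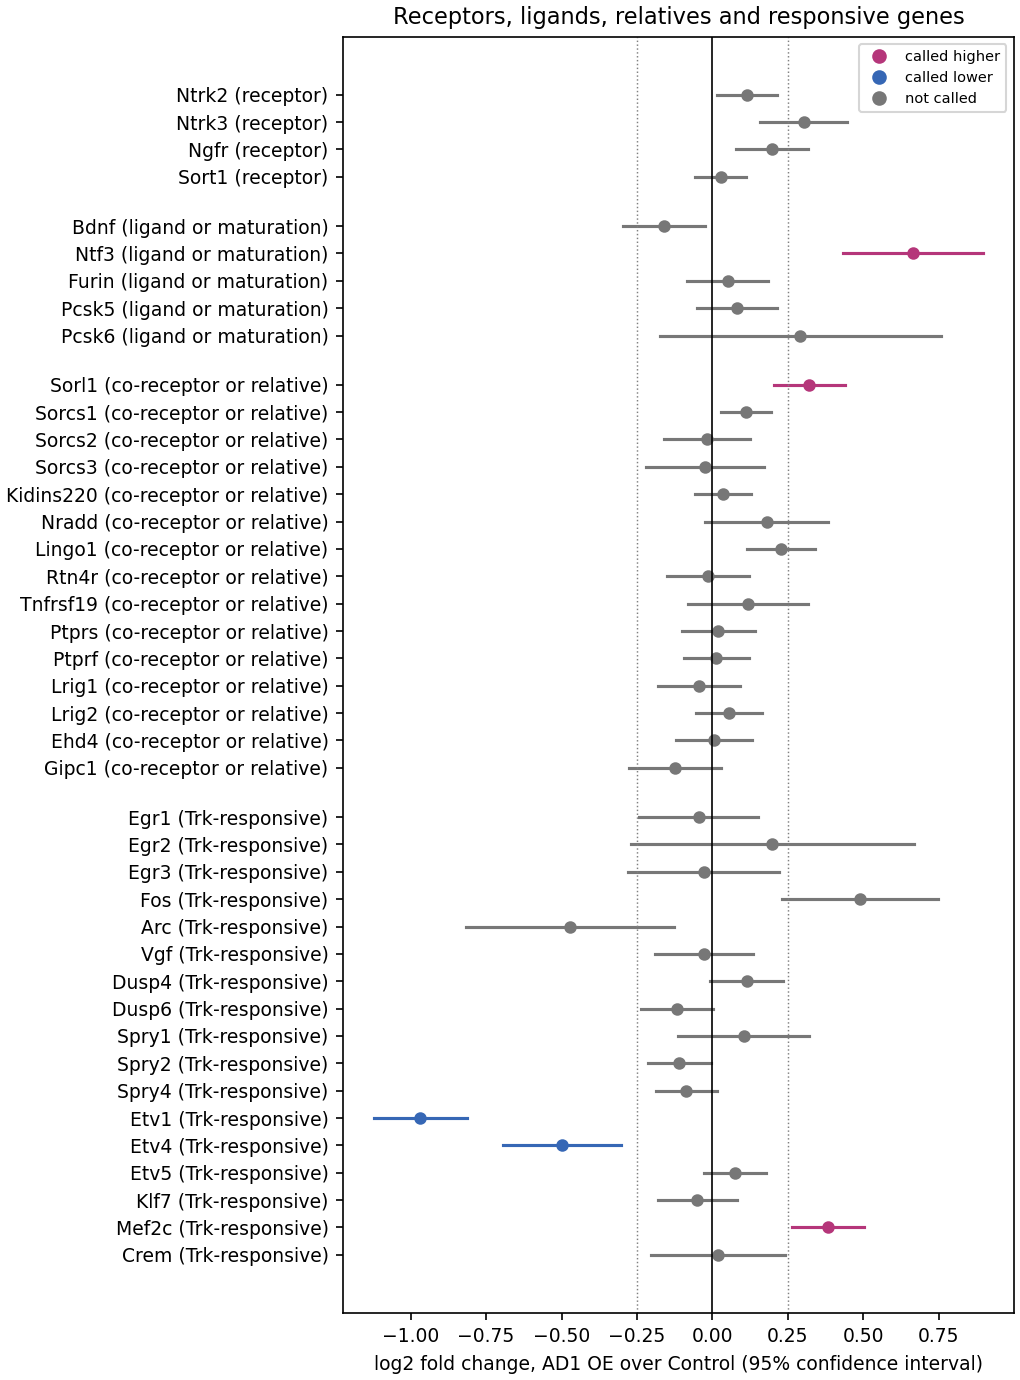
Log2 fold changes of AD1 OE over Control with 95% confidence intervals for the receptors and for the tested genes of 3 pathway lists; dotted lines mark the limit of 0.25 in either direction. Ntf3, Sorl1 and Mef2c are called higher and Etv1 and Etv4 lower, while most other intervals include 0.

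For the intracellular partners of the receptors, the counts of called genes lay near the shares over all tested genes. Among 22 Trk adaptor genes 0 were called by edgeR, against 2.57% of all tested genes, and 0 had an adjusted p under 0.05, against 6.55%. Their median log2 fold change was -0.02, and 13.6% were separated between groups, against 13.0% overall. The most abundant were Pik3r1, a regulatory subunit of phosphoinositide 3-kinase (log2 fold change -0.08, edgeR adjusted p = 0.234), the adaptor Crk (0.01, adjusted p = 0.895) and Shc2, an adaptor of the Shc family (-0.06, adjusted p = 0.410). Among 18 genes of p75 signalling and processing 0 were called by edgeR, 1 had an adjusted p under 0.05 and 16.7% were separated. That gene was Ndn, which encodes necdin, with 255 ± 16.9 CPM against 298 ± 21.6 CPM in Control and no overlap (log2 fold change -0.22, edgeR adjusted p = 0.0468). Maged1, a relative of necdin that binds p75, was at -0.07 (adjusted p = 0.397) and Arhgdia, another gene of the list, at -0.10 (adjusted p = 0.279).

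Of 17 genes known to respond to Trk signals, 1 was called higher and 2 lower (17.6%, against 2.57% of all tested genes). The median log2 fold change was -0.03. At an adjusted p under 0.05, 2 were higher and 2 lower, and 35.3% were separated between groups, against 13.0% overall. Fos (log2 fold change 0.49, edgeR adjusted p = 0.0302), Arc (-0.47, 0.118) and Spry2 (-0.11, 0.243) were separated but not called. These 3 were named after their values were seen. Etv1 (ENSMUSG00000004151) encodes an ETS transcription factor that proprioceptors switch on when NT-3 reaches them from muscle. It was at 93.2, 104, 81.7 and 91.2 CPM in AD1 OE replicates 1 to 4 and at 163, 179, 184 and 197 CPM in Control replicates 1 to 4. All AD1 OE libraries lay far below all Control libraries. This made a log2 fold change of -0.97 (standard error 0.07) at an edgeR adjusted p of 6.39e-06, and Etv1 was called in all 19 other fits, those with a sex term included. The related Etv4 fell from 26.0 ± 2.13 to 18.3 ± 2.32 CPM (log2 fold change -0.50, edgeR adjusted p = 0.00494). Over the fits without 1 library, Etv4 was called only without AD1 OE replicate 3, and its adjusted p reached 0.0211. Mef2c, a transcription factor gene that the study itself examined, rose from 79.8 ± 6.37 to 104 ± 4.12 CPM (log2 fold change 0.38, edgeR adjusted p = 9.99e-04) and was called in each fit without 1 library but not with sex as a 2-level term (0.00545). Klf7, a transcription factor gene and among the most abundant of the list, had a log2 fold change of -0.05 (edgeR adjusted p = 0.719).

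Ntrk2 and Ntrk3 were set beside other markers of the neurons that carry them. Of 10 proprioceptor markers 1 was called, Etv1, which was lower, against 2.57% of all tested genes. Runx3, the transcription factor gene of this lineage, had a log2 fold change of -0.07 (edgeR adjusted p = 0.664) and Pvalb, which encodes parvalbumin, -0.08 (adjusted p = 0.626), both named after their values were seen. Whrn, named likewise, averaged 21.2 ± 1.14 CPM against 26.1 ± 0.865 CPM in Control, without overlap and without a call (log2 fold change -0.31, adjusted p = 0.00557). Other markers, also named after their values were seen, pointed the other way without a call, with log2 fold changes of 0.23 for Cdh13 (adjusted p = 0.0197, no overlap), 0.12 for Heg1 and 0.66 for the widely spread Spp1. The rest of the list, likewise named after their values were seen, were lower without a call: Pou4f3 (-0.16), Lmcd1 (-0.13) and Chad (-0.20). The summed level of all 10 markers overlapped between groups, from 360.1 to 459 CPM in AD1 OE and from 430.3 to 547 CPM in Control. The ratio of means was 0.857, or 1.07 without Etv1. The 1.07 does not show a rise of the other markers as a set, because that sum includes Spp1. The mean of Spp1 was 63.5 CPM (SD 56.3) against 39.6 CPM (SD 30.7) for Control. No sum was taken without both Etv1 and Spp1.

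Of 9 markers of TrkB LTMR, 2 were called higher (Dach1 and Mef2c) and 2 lower (Shox2 and Cntnap5a), against 0.784% and 1.78% of all tested genes. Dach1 is the gene overexpressed, and the study itself examined Mef2c in AD1 OE embryos, so the directions of Dach1 and Mef2c are not independent evidence. For Shox2 the study describes a rise after loss of Dach1, in other embryos. The summed level of the list was 356 to 373 CPM in AD1 OE and 285 to 308 CPM in Control, but without Dach1, the overexpressed gene, the groups overlapped at 264 to 278 and 255 to 275 CPM. They also overlapped without the 4 called genes, at 115 to 138 and 115 to 133 CPM. Of 9 nociceptor markers 4 were called lower and 5 were not called, and of 5 markers of Ret-expressing LTMR 2 were called lower and 3 were not, against 1.78% of all tested genes called lower. The summed nociceptor level was 2192 to 2423 CPM in AD1 OE against 2964 to 3271 CPM in Control, and 1456 to 1565 against 1681 to 1794 CPM without Scn10a, which held most of the difference. The summed level of the Ret-expressing LTMR list was 770.5 to 787 against 844 to 942 CPM, and 100.2 to 119 against 140.4 to 155 CPM without Ret itself, which was not called. Whether these differences bear on the CPM of the receptors was not tested. Relative to the pan-neuronal markers, Ntrk3 was at 0.0335 to 0.0447 in AD1 OE and 0.0296 to 0.0331 in Control, without overlap. Ntrk2 was at 0.0237 to 0.0253 and 0.0211 to 0.0227, also without overlap, although its CPM overlapped between groups. The pan-neuronal sum averaged 8553 CPM in AD1 OE against 8838 CPM in Control, with overlapping ranges. Its lower mean by itself raises these ratios. The summed TrkB LTMR markers include the overexpressed Dach1, so ratios to them are lowered by the overexpression itself. On this scale Ntrk2 was at 0.537 to 0.585 in AD1 OE against 0.632 to 0.665 in Control, without overlap. Ntrk3 overlapped, at 0.806 to 1.01 against 0.901 to 0.968. No ratio was taken to the sum without Dach1, so these ratios do not show how the receptors stand to the other markers of the list. Relative to the summed proprioceptor markers, Ntrk3 was at 0.712 to 0.986 in AD1 OE against 0.508 to 0.676 in Control, without overlap. This sum includes Etv1, which was called lower, and its fall by itself raises the ratio. No ratio was taken to the sum without Etv1, so a separation of Ntrk3 from the other proprioceptor markers is not shown.

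**Figure D3:**
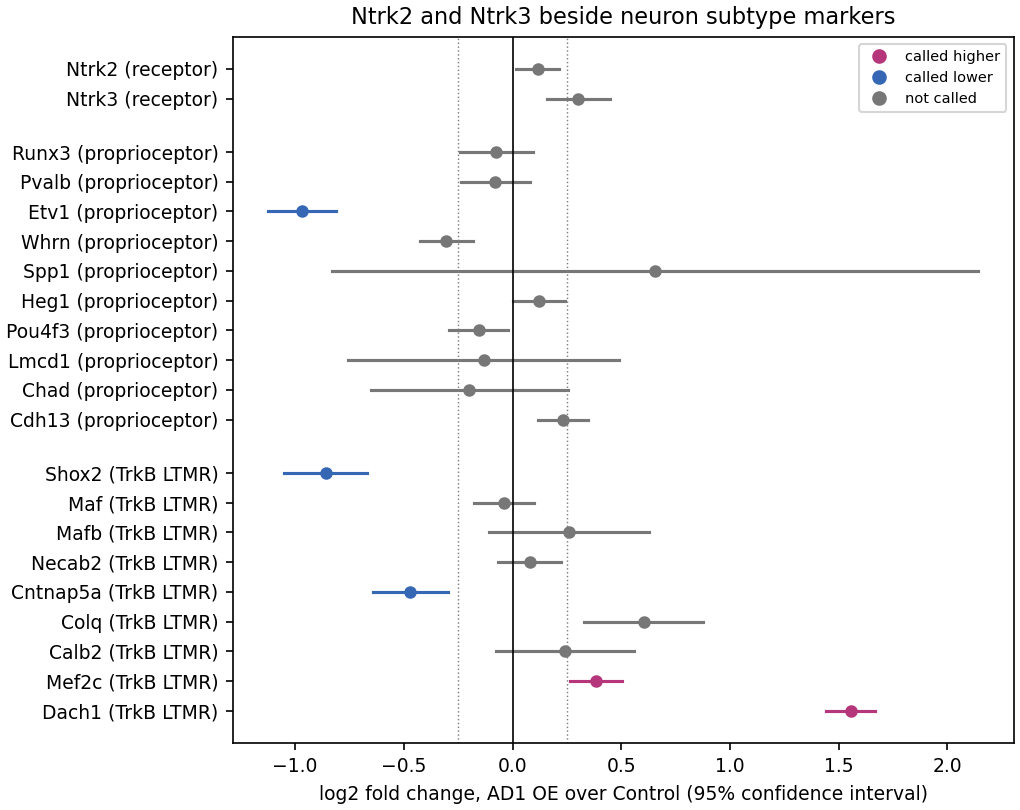
Log2 fold changes of AD1 OE over Control with 95% confidence intervals for Ntrk2 and Ntrk3 and for all markers of proprioceptors and TrkB LTMR; dotted lines mark the limit of 0.25. Etv1, Shox2 and Cntnap5a are called lower and Mef2c and Dach1 higher, and the wide interval of Spp1 reflects its spread between libraries.

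The receptors' differences were also followed through the other fits. In all 19 of these, which changed the test, the scaling, the filter, the covariates or the libraries, each receptor kept a log2 fold change above 0. Since these fits reuse the same libraries, a kept sign is not independent support. The values ran from 0.10 to 0.15 for Ntrk2, from 0.23 to 0.37 for Ntrk3, from 0.18 to 0.23 for Ngfr and from 0.004 to 0.06 for Sort1. Ntrk3 was called in 3 of the 19, by DESeq2, without the expression filter and without AD1 OE replicate 3.

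**Figure D4:**
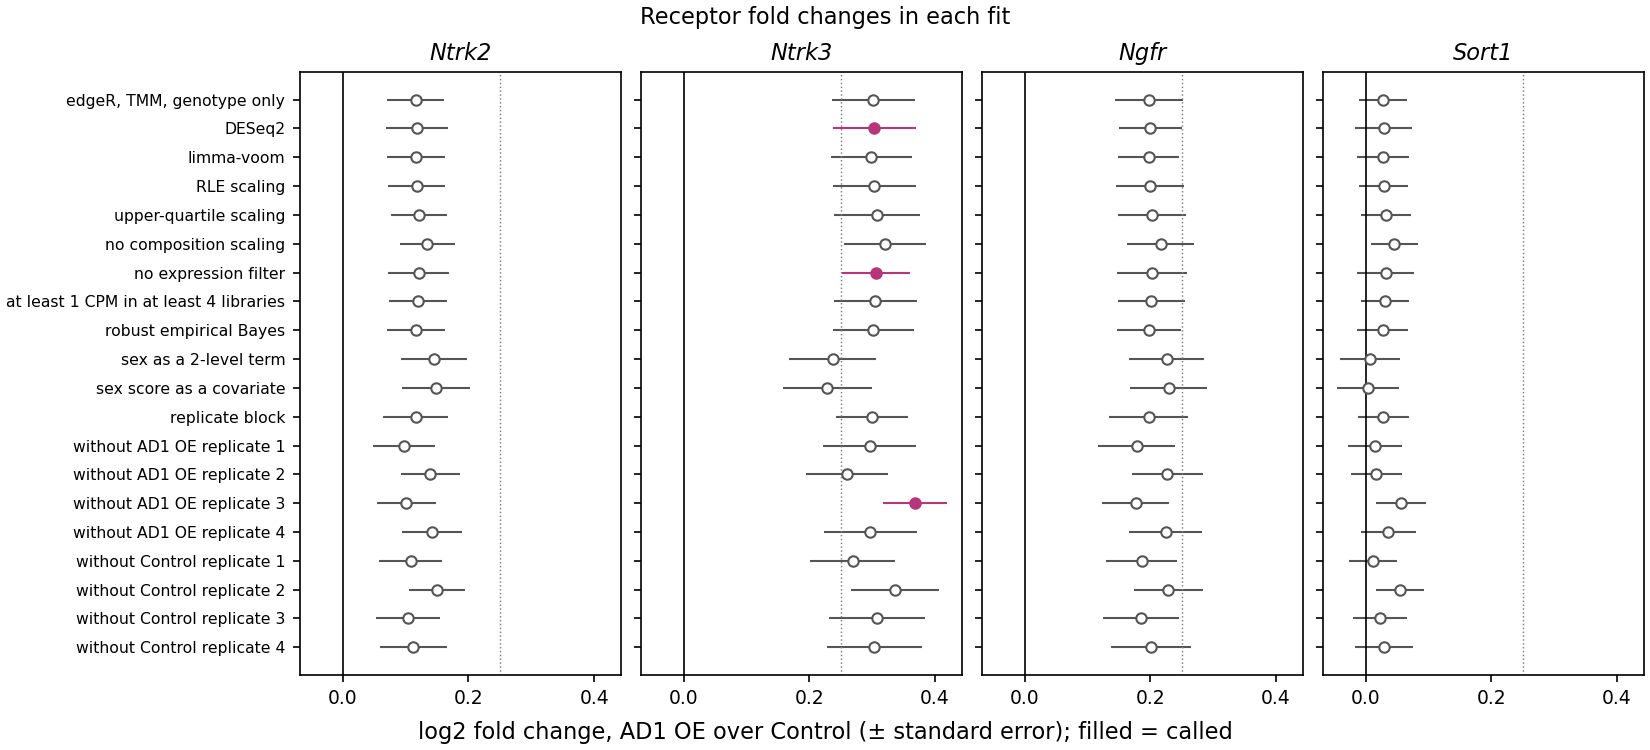
Log2 fold change of each receptor (AD1 OE over Control, ± standard error) in the fit reported and in each of the 19 others; filled points were called, and the dotted line marks the limit of 0.25. Filled points appear for Ntrk3 alone, under DESeq2, without an expression filter and without AD1 OE replicate 3.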

How the data were processed

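DRG were dissected at E18.5, and poly(A) libraries were made with a stranded Illumina kit. The authors demultiplexed with bcl2fastq 2.20.0.422, aligned reads to GRCm39 with STAR 2.7.8a and counted reads by Ensembl gene in featureCounts 2.0.1 (versions from the submitters' processing notes). The deposited values are raw counts, unfiltered and not normalized, in a separate file for each library. Whether counting used the strand is not stated.

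Symbols, exon lengths and overlaps came from GENCODE M21 (GRCm38, an older build, so no coordinates are given). Counts were tested in R 4.3.3 with edgeR 4.0.16 (filterByExpr, TMM, quasi-likelihood F test on genotype, Benjamini-Hochberg adjustment over all 17721 tested genes). Standard errors were taken from the F statistics. DESeq2 1.42.0 (the study's tool) and limma-voom (limma 3.58.1) were alternatives. The code was tested on simulated counts. CPM used TMM-scaled library sizes. Replicate pairs differed by more than counting noise (chi-square per degree of freedom 4.34 to 12.2).

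The receptors and gene lists were chosen with earlier results of these data known. The text names the receptors, ligands, called pathway genes, the 3 most abundant genes of each other pathway list and the 3 genes most correlated with each receptor; others are identified. A single gene of these lists is not reported here. Protein sequences were not used here.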

Additional observations from a re-analysis of the deposited data

Results flagged for a closer look

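Of 28 groups of 4 libraries examined for a library far from the rest, over the receptors, ligands, the called pathway genes and the ratios of receptors, 1 held one, where chance gives about 1 in 20. Mef2c was at 70.3 CPM in Control replicate 1 and between 82.2 and 83.4 CPM in the other 3 Control libraries. Without that library Mef2c was called, with a log2 fold change of 0.33 (edgeR adjusted p = 3.97e-04).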

How the results depend on the processing

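The directions of Ntrk2, Ntrk3, Ngfr and Sort1 held in every fit run. The fits reuse the same libraries, so a kept direction is not independent support. Ntrk3 passed the limits under DESeq2 (log2 fold change 0.30, adjusted p = 1.58e-04), without an expression filter (0.31, edgeR adjusted p = 5.80e-05) and, at its unchanged 0.30, with an adjusted p under 0.05 and no limit on the fold change. Its log2 fold change ran from 0.26 to 0.37 over the fits without 1 library. The count of called genes, 455 (316 lower, 139 higher), was 747 (476 and 271) without an expression filter, 1161 (733 and 428) at an adjusted p under 0.05 alone and 129 (100 and 29) with a log2 fold change over 1 added. DESeq2 called 230 genes higher, and the sex score as a covariate left 91 higher. Without 1 library, from 289 to 420 genes were called, 211 to 309 lower and 78 to 142 higher, fewest without AD1 OE replicate 1. Of the pathway genes, 5 in the reported fit, 1 was called with sex as a 2-level term or as a score, 8 at an adjusted p under 0.05 alone, 0 with a log2 fold change over 1 added, and 2 to 4 without 1 library. Chosen after seeing the data, the marker sums without single genes gave ratios of means of 1.03 in place of 1.24 (TrkB LTMR without Dach1, 1.02 without its 4 called genes), 1.07 in place of 0.857 (proprioceptor without Etv1), 0.868 in place of 0.733 (nociceptor without Scn10a) and 0.718 in place of 0.887 (Ret-expressing LTMR without Ret). The proprioceptor value of 1.07 still includes the widely spread Spp1. The cause of these shifts was not tested. Samples with the same replicate number did not deviate together for replicates 1 to 3 (correlations of -0.05 to -0.01), whereas replicate 4 had a correlation of 0.31. The replicate block is therefore a check only. It called 348 genes and left Ntrk3 at 0.30 (edgeR adjusted p = 0.0149), with 4 pathway genes called. Depth did not limit the receptors, each with at least 2803 counts in a library, but left Ntf5 untested.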
